A study of Homo sapiens with 6 samples.

Results

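The genes described here are the writers, erasers and readers of DNA methylation: the DNA methyltransferases DNMT1, DNMT3A and DNMT3B, the UHRF proteins UHRF1 and UHRF2, the TET dioxygenases TET1, TET2 and TET3, and the methyl-CpG binding protein MBD2. These 9 genes were chosen by name from the 58721 rows of a gene-level count table, and all 9 passed the filter on low counts that left 20713 genes. They were measured in 6 libraries of polyadenylated RNA from A549, a long-used line from a human lung adenocarcinoma. By their titles, the cells of 3 libraries overexpressed KAT8 R98W, a form of the histone H4 acetyltransferase KAT8 (MOF) with an amino acid substitution. Those of the other 3 overexpressed wild-type KAT8 (WT). Both groups were thus labelled as carrying a KAT8 construct, and no library labelled as without one was used here. The KAT8 level of WT replicate 1, given below, goes against its label. The labels do not give the promoter of the construct, whether the cells were a pool or a clone, or whether each replicate was its own culture. The p-values thus rest on a spread between libraries that may be only technical.

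In mammals, DNMT3A and DNMT3B place methyl groups on unmethylated CpG sites, and DNMT1 copies the pattern onto the new strand after replication. UHRF1 recognises the half-methylated site behind the replication fork and brings DNMT1 to it. TET enzymes oxidise the methyl group, after which base excision repair or further rounds of replication can restore plain cytosine, and MBD proteins bind methylated CpG and recruit repressors. Methylation itself was not measured in these libraries.

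The libraries held between 101792328 and 108742650 counts for R98W and between 90007121 and 110152936 for WT. KAT8 was at 166, 196 and 236 CPM (the count as a share of the library's scaled total) in R98W replicates 1 to 3, against 12.2, 195 and 184 CPM in WT replicates 1 to 3. The library labelled WT replicate 1 therefore held 6.43% of the mean KAT8 level of the other WT libraries and goes against its label, and the tests of the 9 genes are also given without it. The 5 epithelial markers summed to between 7133 and 7729 CPM in R98W and between 7644 and 7809 CPM in WT, most of it from the keratins KRT8 and KRT18. The sum hides differences in the others. KRT19 averaged 54.7 CPM in R98W and 39.4 CPM in WT, and EPCAM 3.92 CPM in R98W and 7.10 CPM in WT, both without overlap between the groups. CDH1 averaged 154 CPM in R98W and 155 CPM in WT. The 4 markers of alveolar type 2 cells summed to at most 0.295 CPM in R98W and 0.452 CPM in WT. The 3 endothelial markers summed to at most 0.362 CPM in R98W and 0.779 CPM in WT, 4 of 5 immune markers (all but CD14) and 4 of 5 fibroblast markers (all but COL1A1) were under 1 CPM in all libraries. The edgeR quasi-likelihood test with Benjamini-Hochberg adjustment called 34.8% of the 20713 tested genes at an adjusted p under 0.05, 16.2% higher and 18.5% lower in R98W, and a gene past this threshold is called changed.

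Start regions are shown for UHRF1, DNMT3A and DNMT1, which fell in R98W cells, and for DNMT3B, which did not pass the test although it is the paralog of DNMT3A. The windows are the 250 bases before an annotated start, from RefSeq on GRCh38.p14, read on the strand of the gene, and those printed in full hold no base of an annotated exon of their own gene. Capitals mark a match to 1 of 4 spellings of the E2F site, searched on both strands (TTTGGCGC, TTTCGCGC, TTTCCCGC and TTTGCCGC, which cannot overlap one another on 1 strand but can across strands). E2F factors drive genes of the G1 to S transition.
UHRF1, chr19:4909894-4910143, plus strand: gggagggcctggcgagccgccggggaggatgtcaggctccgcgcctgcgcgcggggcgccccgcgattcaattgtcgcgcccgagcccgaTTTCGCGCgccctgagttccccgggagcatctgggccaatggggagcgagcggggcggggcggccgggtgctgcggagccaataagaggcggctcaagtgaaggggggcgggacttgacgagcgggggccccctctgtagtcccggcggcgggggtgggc
DNMT3A, chr2:25341926-25342175, minus strand: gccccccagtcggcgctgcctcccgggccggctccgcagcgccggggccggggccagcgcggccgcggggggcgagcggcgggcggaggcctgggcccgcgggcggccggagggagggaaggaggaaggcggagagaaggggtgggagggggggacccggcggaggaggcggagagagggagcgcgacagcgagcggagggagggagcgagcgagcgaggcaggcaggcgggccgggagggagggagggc
DNMT3B, chr20:32779602-32779851, plus strand: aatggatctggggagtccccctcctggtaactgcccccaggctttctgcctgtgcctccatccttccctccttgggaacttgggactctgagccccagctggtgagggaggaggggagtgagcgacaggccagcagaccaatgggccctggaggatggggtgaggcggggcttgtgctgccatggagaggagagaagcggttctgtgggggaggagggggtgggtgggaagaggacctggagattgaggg
The UHRF1 window carries TTTCGCGC, and a second UHRF1 start carries another of the spellings, TTTCCCGC, in reverse, shown here with its flanks.
UHRF1, chr19:4909471-4909500, plus strand: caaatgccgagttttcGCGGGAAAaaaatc
Over the 20 windows that RefSeq gives for the 9 genes, an E2F spelling was present in 2 of the 3 UHRF1 windows and in 0 of the 17 windows of the other genes. Over all 35116 windows of this length 2.79% held one. Shares over all windows were not matched for CpG content, and the 3 UHRF1 windows held 28, 32 and 41 CpG sites, against a median of 11. The DNMT1 window held the core of the NRF1 motif (GCATGCGC, both strands searched), in reverse and in capitals below, a match present in 2.63% of all windows. Of the 250 bases of this DNMT1 window, 182 lie in annotated exons of DNMT1. In the window of the second UHRF1 start, 71 lie in annotated exons of UHRF1.
DNMT1, chr19:10195088-10195117, minus strand: gtgcccgccttGCGCATGCgtgttccctgg
The windows also differed in CpG content, the substrate of these enzymes. The UHRF1 window printed in full held 32 CpG sites, 0.94 times the number its base composition predicts, and the DNMT3A window held 33, at 0.90. The other 5 DNMT3A windows held fewer, from 12 to 25 sites at 0.45 to 0.68, so the one shown is the richest of the 6. The DNMT3B window held 3 CpG sites, at 0.13, against a median of 11 and 0.56 over all windows. It is the 1 window given for DNMT3B and precedes a start that lies 17.5 kilobases inside the GENCODE gene, so it does not describe the gene's first start. The UHRF1 window printed in full and the DNMT1 window likewise precede starts 7.1 and 36.3 kilobases inside their genes, and the DNMT3A window one 0.7 kilobases inside. These matches are descriptions of letters, and no binding or methylation was measured at them.

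The maintenance pair, UHRF1 and DNMT1, fell together in R98W cells. UHRF1 (ENSG00000276043, chromosome 19, 4903080 to 4962154, hg38), the reader of half-methylated DNA, was at 29.1, 29.5 and 33.1 CPM in R98W replicates 1 to 3 and at 54.7, 42.8 and 49.7 CPM in WT replicates 1 to 3. Every R98W library lay below every WT library, and the WT libraries were more spread. UHRF1 averaged 30.5 ± 2.19 CPM in R98W and 49.1 ± 5.98 CPM in WT (SD, n = 3 each), or 62.3% of the WT mean, a log2 change of -0.68 with SE 0.09 (edgeR adjusted p = 6.44e-06). It ranked 581 of 20713 genes by p. The WT library with the highest UHRF1 level was replicate 1, the one low in KAT8, and without it the log2 fold change was -0.61 (edgeR adjusted p = 3.25e-05).

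DNMT1 (ENSG00000130816, chromosome 19, 10133345 to 10231286), the maintenance methyltransferase, was at 89.8, 93.9 and 90.6 CPM in R98W replicates 1 to 3 and at 133, 124 and 124 CPM in WT replicates 1 to 3. The groups did not overlap, and the libraries within each were close. The mean was 91.4 ± 2.19 CPM in R98W and 127 ± 5.02 CPM in WT (SD, n = 3 each), a log2 change of -0.47 with SE 0.06 (edgeR adjusted p = 1.35e-05), and without WT replicate 1 it was -0.45 (edgeR adjusted p = 4.03e-05). The gene shares exon sequence with S1PR2, annotated on the same strand, so reads in the shared part could not be assigned to one of them. Per kilobase of exon DNMT1 was the most abundant methyltransferase transcript in both groups.

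UHRF2, the paralog of UHRF1 that does not replace it in DNA methylation maintenance, did not follow it. UHRF2 (ENSG00000147854, chromosome 9, 6413151 to 6507054) was at 53.7, 51.8 and 51.8 CPM in R98W replicates 1 to 3 and at 46.0, 48.9 and 45.5 CPM in WT replicates 1 to 3. All R98W libraries lay above all WT libraries, but the difference missed the threshold at a log2 change of 0.16 with SE 0.07 (edgeR adjusted p = 0.0654), and at 0.14 without WT replicate 1 (edgeR adjusted p = 0.154). The ratio of UHRF1 to UHRF2 CPM was 0.541, 0.570 and 0.638 in R98W replicates 1 to 3 and 1.19, 0.875 and 1.09 in WT replicates 1 to 3. The log2 ratio differed by -0.84 between R98W and WT, with no overlap between the groups (exact two-sided permutation test, p = 0.10, the smallest that 3 libraries against 3 allow, and 0.12 adjusted over 6 ratios).

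**Figure D1:**
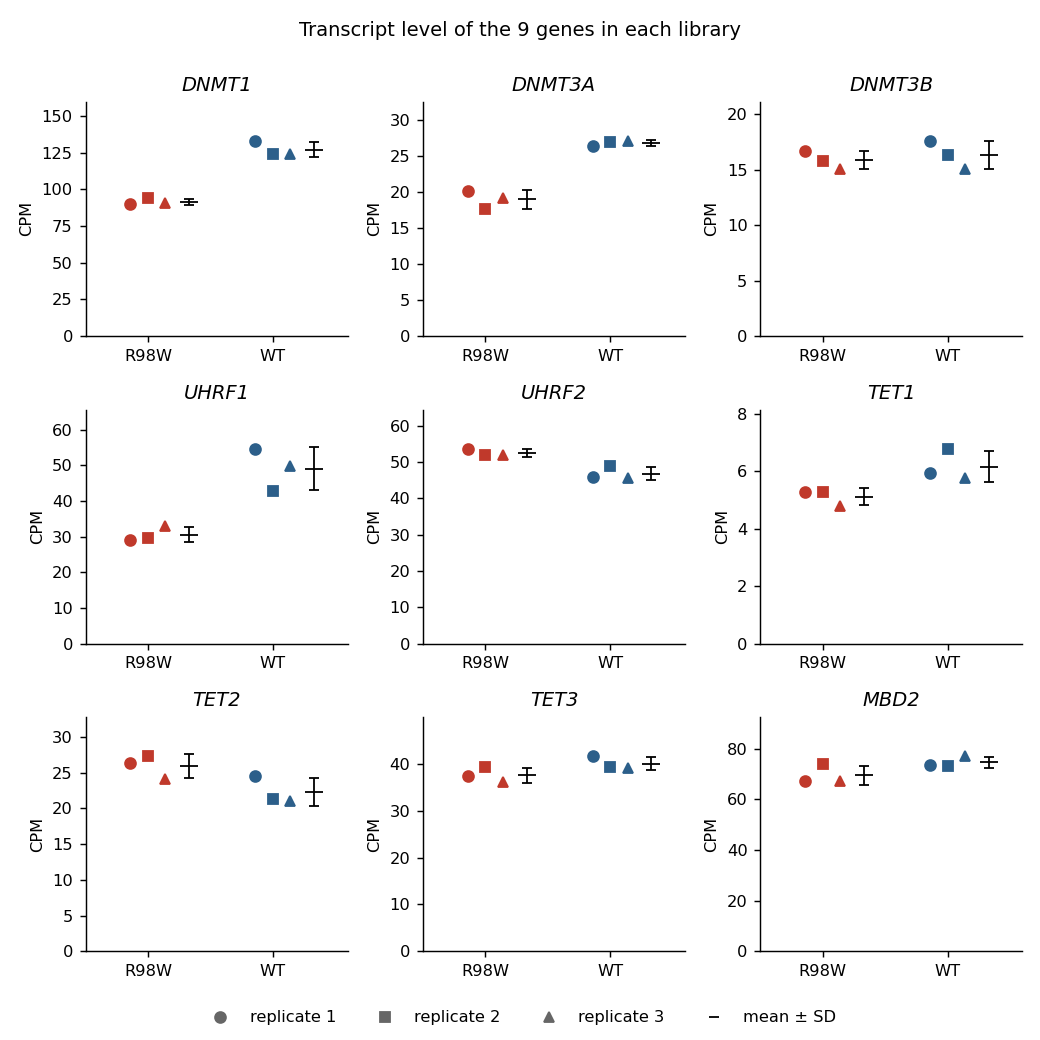
Transcript level in CPM (y axis, from 0) of the 9 genes in R98W (left, red) and WT (right, blue) libraries, with 1 point per replicate and the mean ± SD as a black bar. DNMT1, DNMT3A and UHRF1 sit lower in all 3 R98W libraries than in any WT library, whereas DNMT3B, TET2, TET3 and MBD2 overlap between the groups.

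The de novo methyltransferases parted. DNMT3A (ENSG00000119772, chromosome 2, 25227855 to 25342590) was at 20.1, 17.6 and 19.2 CPM in R98W replicates 1 to 3 and at 26.4, 27.0 and 27.1 CPM in WT replicates 1 to 3. The WT libraries were nearly equal and all lay above the R98W libraries. The R98W mean was 70.7% of the WT mean, a log2 change of -0.50 with SE 0.08 (edgeR adjusted p = 7.25e-05), and -0.52 without WT replicate 1 (edgeR adjusted p = 0.000143).

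DNMT3B (ENSG00000088305, chromosome 20, 32762385 to 32809356) was at 16.7, 15.8 and 15.1 CPM in R98W replicates 1 to 3 and at 17.6, 16.3 and 15.1 CPM in WT replicates 1 to 3. The groups overlapped, and the log2 change was -0.04 with SE 0.09 (edgeR adjusted p = 0.755). The sign was not stable, at 0.00 without WT replicate 1 (edgeR adjusted p = 0.989) and 0.04 after a correction for GC content. The log2 ratio of DNMT3A to DNMT3B CPM was 0.27, 0.15 and 0.35 in R98W replicates 1 to 3 and 0.59, 0.73 and 0.84 in WT replicates 1 to 3, a difference of -0.46 with no overlap (exact two-sided permutation p = 0.10, and 0.12 adjusted over 6 ratios). DNMT3L, the cofactor of both enzymes in germ cells, had 0 counts in each R98W library and 2, 0 and 1 counts in WT replicates 1 to 3, too few for a test. Per kilobase of exon, DNMT3B made up 23.9 ± 0.966% of the summed level of the DNMT genes in R98W and 18.8 ± 0.798% in WT (SD, n = 3 each), while DNMT1 made up 65.1 ± 1.49% in R98W and 69.2 ± 0.501% in WT. Without WT replicate 1 the WT means were 18.5% for DNMT3B and 69.2% for DNMT1.

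**Figure D2:**
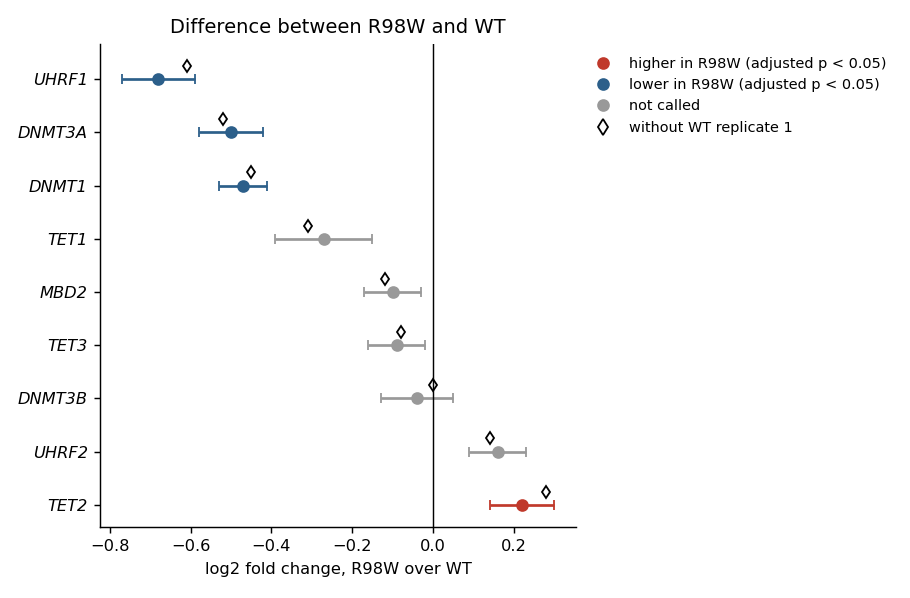
Log2 fold change of R98W over WT (x axis) for each of the 9 genes, with the standard error as a bar and the colour giving the edgeR call, and open diamonds for the value without WT replicate 1. UHRF1 (-0.68), DNMT3A (-0.50) and DNMT1 (-0.47) lie to the left of the others, and leaving out the library low in KAT8 moved no called gene across 0.

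The TET genes showed smaller differences, in both directions. TET2 (ENSG00000168769, chromosome 4, 105145875 to 105279816), a dioxygenase often mutated in blood cancers, was at 26.4, 27.3 and 24.1 CPM in R98W replicates 1 to 3 and at 24.5, 21.3 and 21.0 CPM in WT replicates 1 to 3. The lowest R98W library lay just under the highest WT library, which was the one low in KAT8. TET2 rose, with a log2 change of 0.22 with SE 0.08 (edgeR adjusted p = 0.0497), close to the threshold. The call ended in 12 of 18 alternatives, over which the adjusted p ran from 0.0146 to 0.808 and the log2 fold change from 0.17 to 0.28, and without WT replicate 1 it stood at 0.28 (edgeR adjusted p = 0.016). It ended without R98W replicate 1 or 2 or WT replicate 2 or 3 (edgeR adjusted p = 0.131, 0.189, 0.147 and 0.218).

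TET1 (ENSG00000138336, chromosome 10, 68560656 to 68694482), the TET enzyme prominent in embryonic stem cells, was the least abundant of the 9 genes, at 5.30, 5.29 and 4.78 CPM in R98W replicates 1 to 3 and 5.95, 6.80 and 5.76 CPM in WT replicates 1 to 3. The groups did not overlap, but the difference missed the threshold at a log2 change of -0.27 with SE 0.12 (edgeR adjusted p = 0.0908), and at -0.31 without WT replicate 1 (edgeR adjusted p = 0.0774). TET3 (ENSG00000187605, chromosome 2, 73986404 to 74108176), which acts on the paternal genome in the zygote, was at 37.3, 39.2 and 36.1 CPM in R98W replicates 1 to 3 and at 41.6, 39.4 and 39.1 CPM in WT replicates 1 to 3. Its groups barely overlapped, and its log2 change was -0.09 with SE 0.07 (edgeR adjusted p = 0.337), and -0.08 without WT replicate 1 (edgeR adjusted p = 0.486).

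Set against TET2 within each library, both other TET genes were lower in all R98W libraries than in any WT library. The ratio of TET1 to TET2 CPM was 0.201, 0.194 and 0.198 in R98W replicates 1 to 3 and 0.243, 0.319 and 0.274 in WT replicates 1 to 3. The log2 ratio of TET3 to TET2 was 0.50, 0.52 and 0.58 in R98W replicates 1 to 3 and 0.76, 0.89 and 0.89 in WT replicates 1 to 3. The log2 ratios differed by -0.49 and -0.31 (exact two-sided permutation p = 0.10 each, and 0.12 adjusted over 6 ratios). Per kilobase of exon, TET2 made up 30.4 ± 0.548% of the summed TET level in R98W and 25.6 ± 1.19% in WT (SD, n = 3 each), or 24.9% in WT without replicate 1.

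MBD2 (ENSG00000134046, chromosome 18, 54151601 to 54224788), a reader that ties methylated CpG to the NuRD deacetylase complex, was at 67.3, 73.9 and 67.4 CPM in R98W replicates 1 to 3 and at 73.7, 73.2 and 77.1 CPM in WT replicates 1 to 3. Replicate 2 of R98W lay within the WT range and the other two lay below it. The log2 change was -0.10 with SE 0.07 (edgeR adjusted p = 0.252), and -0.12 without WT replicate 1 (edgeR adjusted p = 0.208).

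**Figure D3:**
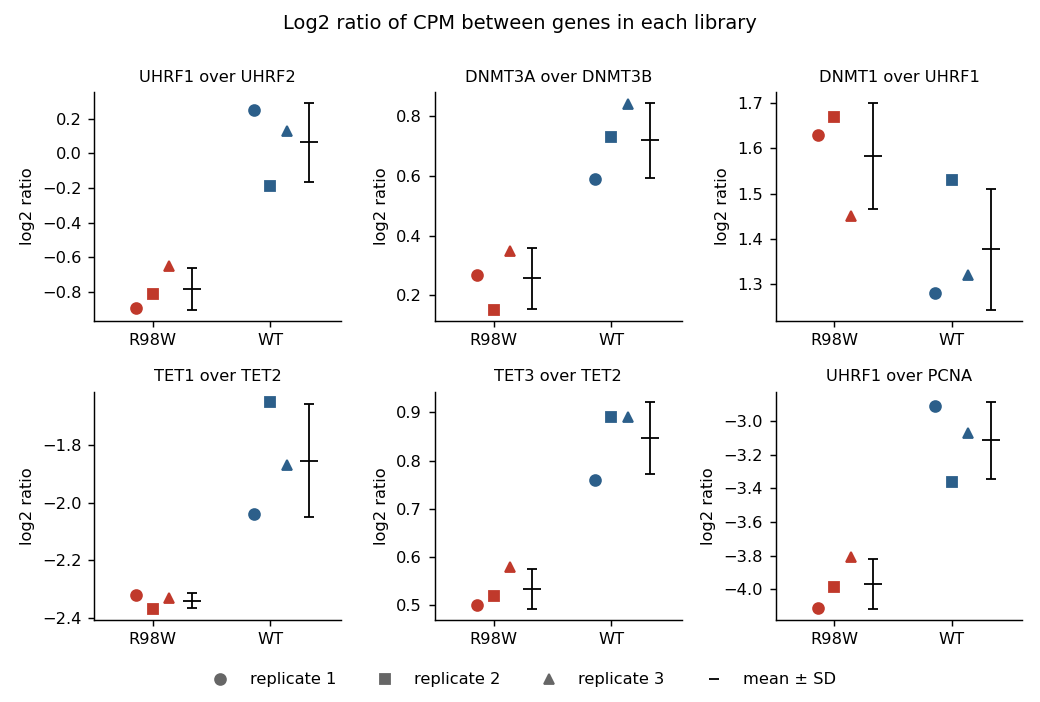
Log2 ratio of CPM between pairs of genes (y axis, not starting at 0) in R98W (left, red) and WT (right, blue) libraries, with 1 point per replicate and the mean ± SD. The groups are apart for 5 pairs, all lower in R98W, and overlap for DNMT1 over UHRF1. Of all single tested genes 45.6% had groups apart, and no share was computed over other gene pairs. In those 5 pairs the first gene had the lower log2 fold change, so the shared direction restates the values of the single genes.

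In count, 1 of the 9 genes was higher and 3 were lower in R98W, beside 16.2% and 18.5% of all tested genes, and 4 changed in either direction, beside 34.8%. Without WT replicate 1 the counts were also 1 higher and 3 lower. Among the 8835 tested genes whose mean level lay within the range of the 9, from 5.64 to 109 CPM, 22.3% were higher and 23.6% lower, 45.8% in all. The median log2 fold change was -0.10 for the 9 genes and -0.0047 for all tested genes. The R98W and WT libraries did not overlap in 5 of the 9 genes, R98W being lower in 4 and higher in 1, beside 45.6% of all tested genes, 24.2% with R98W lower and 21.3% with R98W higher. The falls of UHRF1, DNMT1 and DNMT3A passed the threshold in all 18 alternatives, with log2 fold changes from -0.78 to -0.60 for UHRF1, from -0.58 to -0.38 for DNMT1 and from -0.54 to -0.42 for DNMT3A. With each library left out in turn, WT replicate 1 included, the log2 ratio differences ran from -0.97 to -0.75 for UHRF1 over UHRF2, from -0.53 to -0.40 for DNMT3A over DNMT3B, from -0.58 to -0.39 for TET1 over TET2 and from -0.36 to -0.29 for TET3 over TET2.

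Compared per kilobase of annotated exon, which allows levels of different genes to be set side by side, MBD2 and DNMT1 led and TET1 came last. In R98W the order was MBD2 at 12.0 ± 0.650 CPM per kilobase, DNMT1 at 9.33 ± 0.224, UHRF1 at 5.94 ± 0.426, UHRF2 at 5.29 (from 5.22 to 5.41), DNMT3B at 3.42 ± 0.175, TET3 at 3.06 ± 0.127, DNMT3A at 1.58 ± 0.108, TET2 at 1.57 ± 0.101 and TET1 at 0.551 ± 0.0322 (SD, n = 3). Neighbours in that order whose libraries overlapped were DNMT3A and TET2. In WT the order was DNMT1 at 13.0 ± 0.513 CPM per kilobase, MBD2 at 12.8 ± 0.368, UHRF1 at 9.53 ± 1.16, UHRF2 at 4.72 ± 0.187, DNMT3B at 3.53 ± 0.269, TET3 at 3.26 ± 0.113, DNMT3A at 2.23 ± 0.0289, TET2 at 1.35 ± 0.117 and TET1 at 0.664 ± 0.0596 (SD, n = 3). There the libraries overlapped for DNMT1 and MBD2 and for DNMT3B and TET3, and without WT replicate 1 MBD2 came before DNMT1, at 12.9 and 12.7 CPM per kilobase, with the rest in the same order. Exon lengths count every annotated isoform, from 4.63 kilobases for DNMT3B to 16.47 for TET2, so genes with long rare isoforms appear lower on this scale.

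**Figure D4:**
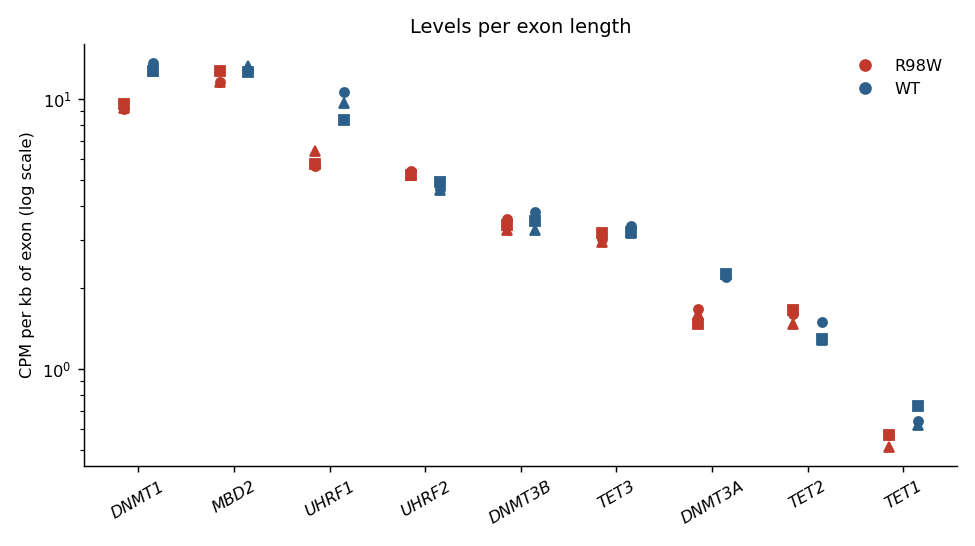
Level of each gene per kilobase of annotated exon (y axis, CPM per kilobase, log scale) in R98W (red) and WT (blue) libraries, 1 point per library, ordered by the WT mean. DNMT1 and MBD2 are near 13 in WT, and TET1 is under 1 in all libraries.

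Most of the listed S phase genes fell in R98W cells. Of 27 S phase genes, 21 fell and 0 rose, with a median log2 fold change of -0.30. The share changed was 77.8%, against 34.8% of all tested genes and 45.8% of those averaging 5.64 to 109 CPM. With each library left out 16 to 20 were lower, and 19 without WT replicate 1. Over the other settings 8 to 22 were lower, with 8 against a fold of 1.2. RRM2, CCNE2, CDT1, TYMS, GINS1 and RFC4 were not called, with log2 fold changes from -0.22 (RFC4) to 0.03 (RRM2). PCNA, which rose, and PCLAF, LIG1 and HELLS, which were not called, were listed as partners of maintenance methylation. The count of 0 thus depends on the listing. The helicase subunits MCM5, MCM7 and MCM2 fell by 0.65, 0.57 and 0.52 on the log2 scale and the transcription factor E2F2 fell by 0.76 (edgeR adjusted p from 4.50e-07 to 7.69e-06). On the other strand AP4M1 overlaps MCM7 and TPRA1 overlaps MCM2, and the strand setting of the counting is not given. The part of S phase genes in the UHRF1 and DNMT1 values was not tested, and in bulk RNA fewer cells in S phase and less RNA per cell cannot be told apart. The clamp PCNA, which binds DNMT1 at the fork, rose to 479 ± 20.3 CPM in R98W, against 423 ± 15.9 CPM in WT (SD, n = 3 each; log2 fold change 0.18, edgeR adjusted p = 0.032), and this call ended without WT replicate 1 or 3 or R98W replicate 1 or 2 (edgeR adjusted p = 0.0968, 0.123, 0.152 and 0.0685). After a correction for expression level its log2 change was -0.00. The ratio of UHRF1 to PCNA CPM was 0.0578, 0.0627 and 0.0711 in R98W replicates 1 to 3 and 0.133, 0.0971 and 0.119 in WT replicates 1 to 3, a log2 difference of -0.86 with no overlap (exact two-sided permutation p = 0.10, and 0.12 adjusted over 6 ratios). The ratio of DNMT1 to UHRF1 was 3.09, 3.18 and 2.74 in R98W replicates 1 to 3 and 2.42, 2.89 and 2.50 in WT replicates 1 to 3, with overlap between the groups (exact two-sided permutation p = 0.2).

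Of the 11 genes listed as partners of maintenance methylation, 9 were tested, 1 was higher (PCNA) and 0 were lower, or 11.1% against 34.8% of all tested genes, with a median log2 fold change of -0.02. HELLS, the remodeler needed for methylation of repeats, had a log2 fold change of -0.11 (edgeR adjusted p = 0.272) and its activator CDCA7 had 0.01 (edgeR adjusted p = 0.923). USP7, the deubiquitinase that stabilises DNMT1 and UHRF1, had 0.12 (-0.03 after the correction for expression level), the histone methyltransferase EHMT2 had -0.19 and the ligase LIG1 had -0.15, with edgeR adjusted p of 0.183, 0.0541 and 0.108.

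Among 9 other readers of methylated CpG, all tested, 1 was higher and 1 lower, or 22.2% against 34.8% of all tested genes, with a median log2 fold change of -0.02. The lower count was 0 without R98W replicate 2 and 2 without WT replicate 2. MBD4, a reader that is also a glycosylase for deaminated methylcytosine, rose to 51.0 ± 2.56 CPM in R98W, against 40.8 ± 1.35 CPM in WT (SD, n = 3 each; log2 fold change 0.32, edgeR adjusted p = 0.00122), and it overlaps IFT122 on the other strand. The zinc finger reader ZBTB4 fell by 0.23 on the log2 scale (edgeR adjusted p = 0.0142), a call that ended in 5 of 18 alternatives, among them without R98W replicate 2 or 3. MBD1 had -0.19 (edgeR adjusted p = 0.0541) and ZBTB38 had 0.11 (edgeR adjusted p = 0.204), or -0.06 after the correction for expression level. Of the 12 listed NuRD subunits, all tested, 2 were higher and 2 lower, or 33.3% against 34.8% of all tested genes. These counts rested on single libraries: the higher count was 1 or 0 with any 1 library left out, and the lower count was 1 without R98W replicate 1, R98W replicate 3 or WT replicate 3. The helicase CHD3 fell to 259 ± 12.4 CPM in R98W, against 324 ± 27.1 CPM in WT (SD, n = 3 each; log2 fold change -0.32, edgeR adjusted p = 0.00135), and its call held with each library left out. MTA3 fell by 0.22 on the log2 scale (edgeR adjusted p = 0.0284), but its groups overlapped and the call ended in 7 of 18 alternatives, among them without R98W replicate 1 or 3 or WT replicate 2 or 3. The deacetylase HDAC2 and the subunit MTA2 each rose by 0.19 (edgeR adjusted p = 0.023 and 0.0374), but the MTA2 call ended in 11 of 18 alternatives and the HDAC2 call in 8. Of the 6 omissions of a library, the MTA2 call held in 1, without WT replicate 1, and the HDAC2 call in 2, without R98W replicate 3 or WT replicate 2. HDAC2 overlaps HDAC2-AS2 on the other strand.

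Downstream of the TET enzymes, the glycosylase TDG rose and 5 other repair genes fell. TDG, which excises the oxidised bases that TET enzymes make, was at 66.4, 66.3 and 66.3 CPM in R98W replicates 1 to 3 and at 52.4, 45.2 and 49.7 CPM in WT replicates 1 to 3. The R98W libraries were almost equal and all lay above WT, with a log2 change of 0.43 with SE 0.07 (edgeR adjusted p = 7.82e-05). Of the 10 genes of this group, all tested, TDG alone was higher and 5 were lower (2 were higher without WT replicate 2). The median log2 fold change was -0.23. The share changed was 60%, against 34.8% of all tested genes and 45.8% of those averaging 5.64 to 109 CPM. The scaffold XRCC1 fell to 16.9 ± 0.413 CPM in R98W, against 25.8 ± 1.36 CPM in WT (SD, n = 3 each; log2 fold change -0.61, edgeR adjusted p = 8.67e-06). The glycosylases SMUG1 and NEIL1 fell by 0.62 and 0.86 on the log2 scale, PARP1 by 0.38 and the gap-filling polymerase POLB by 0.34 (edgeR adjusted p from 0.000103 to 0.00758). NEIL1 overlaps MAN2C1 on the other strand. The counts of called genes in this group were the same without WT replicate 1.

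Partners and cofactor supply of the TET enzymes were higher in 3 and lower in 1 of 10 tested genes, or 40% against 34.8% of all tested genes and 45.8% of those at the levels of the 9 genes, with a median log2 fold change of -0.03. OGT, the glycosyltransferase that TET proteins bind, rose to 182 ± 8.40 CPM in R98W, against 135 ± 2.82 CPM in WT (SD, n = 3 each; log2 fold change 0.43, edgeR adjusted p = 3.81e-05). IDH1, the cytosolic enzyme that makes the TET cosubstrate 2-oxoglutarate, rose to 713 ± 21.6 CPM in R98W, against 525 ± 26.4 CPM in WT (SD, n = 3 each; log2 fold change 0.44, edgeR adjusted p = 2.44e-05), and it overlaps IDH1-AS1 on the other strand. IDH2 and IDH3A of the same group were not called, with log2 fold changes of -0.12 and -0.05 (edgeR adjusted p = 0.181 and 0.644). IDH3A overlaps CIB2 and ACSBG1 on the other strand. The mitochondrial channel VDAC1 rose by 0.36 and the SIN3 corepressor subunit SUDS3 fell by 0.35 on the log2 scale (edgeR adjusted p = 0.000215 and 0.000776). Neither of these is known chiefly for work with TET enzymes.

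The cycle of S-adenosylmethionine, the methyl donor of the DNMT enzymes, was higher in 5 and lower in 1 of 12 tested genes. The median log2 fold change was 0.13. The share changed was 50%, against 34.8% of all tested genes and 45.8% of those averaging 5.64 to 109 CPM. The higher count was 3 without R98W replicate 1 or WT replicate 3, and 5 without WT replicate 1. CBS, which draws homocysteine into cysteine synthesis, rose by 0.51 on the log2 scale (edgeR adjusted p = 0.000785). MAT2B, the regulatory subunit of the synthetase, rose by 0.24, and AHCY, which removes the inhibitory product S-adenosylhomocysteine, rose by 0.21 (edgeR adjusted p = 0.0055 for MAT2B and 0.0152 for AHCY). AHCY shares exon sequence with ENSG00000250917, annotated on the same strand, so reads in the shared part could not be assigned to one of them. The MAT2B call ended after the corrections for expression level and GC content and against a fold of 1.2. MAT2A, the catalytic subunit, which overlaps GGCX on the other strand, had a log2 change of 0.09 (edgeR adjusted p = 0.31). The liver form MAT1A fell to 1.04 ± 0.481 CPM in R98W, against 1.98 ± 0.180 CPM in WT (SD, n = 3 each; log2 fold change -0.93, edgeR adjusted p = 0.00699).

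**Figure D5:**
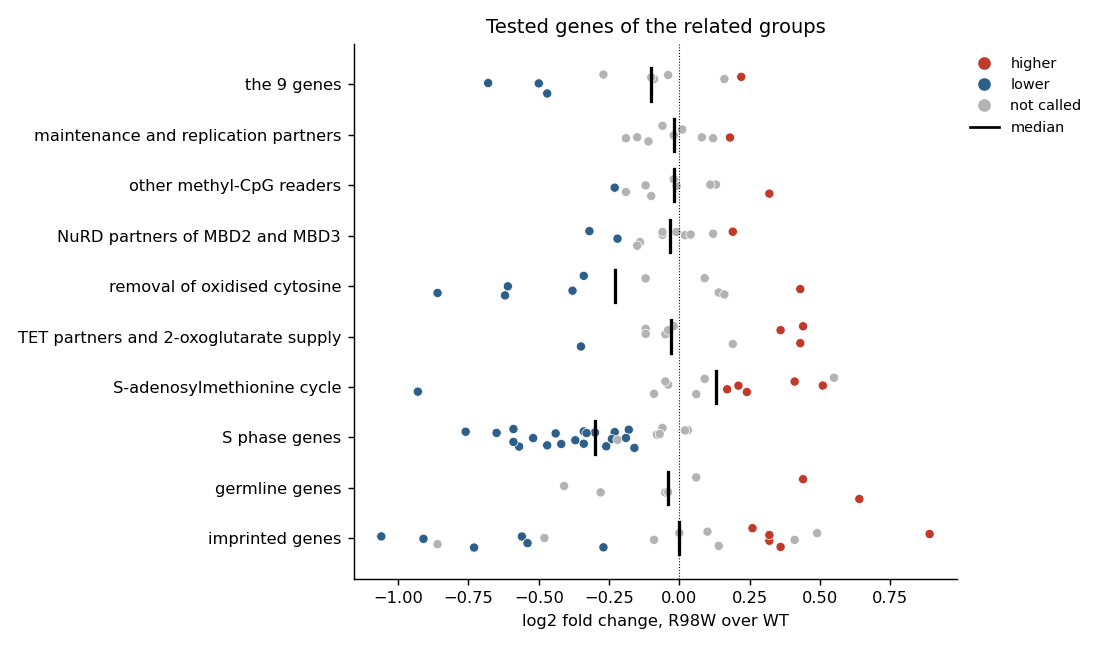
Log2 fold change of R98W over WT (x axis) for the tested genes of the 9 genes and of 9 related groups, 1 point per gene, coloured by the edgeR call, with the group median as a black bar. S phase genes lie mostly below 0 (median -0.30), and the imprinted genes spread widely to both sides of a median of 0.00.

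Germline and imprinted genes, classes often tied to DNA methylation, were read in the same libraries. Whether methylation sets the level of the listed genes in these cells was not tested. Germline and cancer-testis genes, whose promoters are methylated in most somatic cells, were mostly near zero. Of 31 listed, 23 were under 0.1 CPM in all 6 libraries and 9 of them had 0 counts, and 7 passed the filter. Among those, 2 were higher and 0 lower in R98W, or 28.6% against 34.8% of all tested genes. HORMAD1, a meiotic chromosome protein, was at 24.3, 24.3 and 22.2 CPM in R98W replicates 1 to 3 and at 16.4, 13.3 and 15.6 CPM in WT replicates 1 to 3, so it was already expressed in WT cells. Its log2 change was 0.64 with SE 0.09 (edgeR adjusted p = 1.94e-05). MAGEA6 rose by 0.44 on the log2 scale (edgeR adjusted p = 0.00278), and its near-identical copies make its count uncertain, with MAGEA3 at -0.04 (edgeR adjusted p = 0.823). MAGEC1 had a log2 change of -0.41 (edgeR adjusted p = 0.619), with a mean of 0.0936 CPM for R98W and 0.124 CPM for WT. PIWIL2 had -0.28 (edgeR adjusted p = 0.62), with a mean of 0.312 CPM for R98W and 0.379 CPM for WT.

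Imprinted genes, whose active allele is set by methylation in the germ line, differed in both directions. Of 23 listed, 19 were tested, 5 were higher and 6 lower in R98W, with the same counts without WT replicate 1. The median log2 fold change was 0.00. The share changed was 57.9%, against 34.8% of all tested genes and 45.8% of those averaging 5.64 to 109 CPM. MEST was at 23.3, 21.9 and 20.7 CPM in R98W replicates 1 to 3 and at 34.5, 45.0 and 44.4 CPM in WT replicates 1 to 3, with a log2 change of -0.91 with SE 0.09 (edgeR adjusted p = 5.45e-07), and it overlaps COPG2 on the other strand. Its WT replicate 1 was the lowest of the WT libraries and still lay above all R98W libraries. PEG10 fell to 296 ± 31.6 CPM in R98W, against 435 ± 20.6 CPM in WT (SD, n = 3 each; log2 fold change -0.56, edgeR adjusted p = 1.26e-05). Its neighbour SGCE, which overlaps it on the other strand and is imprinted with it, fell by 0.27 (edgeR adjusted p = 0.00809). L3MBTL1 had a log2 fold change of -1.06 (edgeR adjusted p = 0.000236) and the noncoding H19 had -0.73 (edgeR adjusted p = 0.000486). The growth-limiting gene PHLDA2 rose to 18.9 ± 4.06 CPM in R98W, against 10.2 ± 1.29 CPM in WT (SD, n = 3 each; log2 fold change 0.89, edgeR adjusted p = 2.78e-05). GRB10, PLAGL1, BLCAP and ZDBF2 rose by 0.26 to 0.36 on the log2 scale (edgeR adjusted p from 0.000645 to 0.0123), and BLCAP overlaps NNAT on the other strand. The counts do not separate the alleles.

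The pattern of UHRF1 over the 6 libraries was closely matched by those of SULT1C2, ZBTB46, TCOF1 and TLR3, with Pearson r of log2 CPM from 0.993 to 0.999 among the 14237 genes that averaged 1 CPM or more. These values describe 6 libraries in 2 groups and share the difference between the groups. TCOF1, a nucleolar factor of ribosomal RNA synthesis, averaged 108 CPM in R98W and 137 CPM in WT, and TLR3, a sensor of double-stranded RNA, averaged 4.03 CPM in R98W and 7.65 CPM in WT. Among the 9 genes, r with UHRF1 was 0.96 for DNMT1, 0.91 for DNMT3A, 0.71 for TET3, 0.66 for MBD2, 0.63 for TET1, 0.26 for DNMT3B, -0.69 for TET2 and -0.97 for UHRF2.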

How the data were processed

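Gene-level RNA-seq was analysed in 6 libraries of A549 cells, 3 R98W and 3 WT, grouped by their titles. The deposited table holds raw read counts per gene, whole numbers with no normalisation, made by the authors. Per the submitters' processing notes, CASAVA 1.8, HISAT2 2.1.0, HTSeq 0.11.3 and hg38 were used, with no role stated; the sources used here give no annotation, strand setting or read filter. All 58721 rows matched GENCODE 29 by identifier. Genes were kept by filterByExpr (minimum count 10, minimum total 15), scaled by TMM and tested with edgeR 4.0.16 (quasi-likelihood) in R 4.3.3 across all 20713 genes, with Benjamini-Hochberg adjustment at 0.05. The standard error was taken from the test statistic. CPM used TMM-scaled totals, and ratios used log2 CPM with a prior count of 0.5. Alternatives were other scalings, filters, limma-voom (limma 3.58.1), DESeq2 1.42.0, a replicate block, each library left out, a threshold of 0.01, a test against a fold of 1.2, and loess corrections for expression level, gene length and, chosen after the data were seen, GC content. The fit was tested on simulated data. The 9 genes and the gene lists were chosen with earlier results of these data known. Named genes were the 9, KAT8, the 4 genes with the smallest p of each list and the 5 genes most like UHRF1. Other list members named (HELLS, CDCA7, DNMT3L, NEIL1, POLB, IDH2, IDH3A, AHCY, MAT2A, MAGEA3, SGCE, H19, GRB10, PLAGL1, BLCAP, ZDBF2 and MTAP) were chosen after their values were seen. So were PCLAF, RRM2, CCNE2, CDT1, TYMS, GINS1 and RFC4. Some genes that this rule names are not reported here.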

Additional observations from a re-analysis of the deposited data

How the results depend on the processing

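The count of 3 lower genes among the 9 was 3 or 4 in all 18 alternatives, the fourth being MBD2 after the correction for expression level (edgeR adjusted p = 0.0436) and TET1 after that for GC content (edgeR adjusted p = 0.0397). The single higher gene, TET2, depended on the setting: 0 of the 9 were higher with upper quartile scaling, no filter, a filter of 50 counts in 3 libraries, limma-voom, the replicate block, a threshold of 0.01 or a fold of 1.2, and 2 were higher with DESeq2 or the length correction, UHRF2 being the added gene. Without WT replicate 2 and after the GC correction UHRF2 was higher and TET2 was not. Leaving out 1 library gave 0 to 1. The cause was not tested.

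Over all genes, 2143 were higher at a threshold of 0.01, and against a fold of 1.2, a stricter test by construction, 884 were higher and 1982 lower, of 3364 and 3839. Leaving out 1 library gave 2340 to 3268 higher and 3060 to 3944 lower. Over the lists, 6 genes were higher and 16 lower against a fold of 1.2, of 20 and 37.

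Reversed signs were confined, among the named genes, to log2 fold changes that ended near 0: DNMT3B at 0.00 without WT replicate 1 (from -0.10 to 0.00 over the 6 omissions of a library), 0.01 after the correction for expression level and 0.04 after that for GC content, and after the correction for expression level PCNA at -0.00, USP7 at -0.03 and ZBTB38 at -0.06. The PCNA call ended there.

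The deviations of same-numbered libraries from their group means correlated at -0.036, -0.085 and -0.082. With 3 libraries per group these values cannot show whether same-numbered libraries shared a culture or a preparation. The fit with the replicate number as a block gave 3 lower and 0 higher genes among the 9. Ratio differences kept their direction with a prior count of 2 and with each library left out. The tests for MAGEC1, PIWIL2 and MTAP rest on few counts in each library.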

Other observations

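MTAP, the phosphorylase that returns methylthioadenosine to the methionine pool, stood at 14, 10 and 15 counts in R98W replicates 1 to 3 and at 10, 12 and 19 counts in WT replicates 1 to 3, in libraries of at least 90007121 counts. Its log2 change was -0.05 (edgeR adjusted p = 0.958).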
